A study of Mus musculus with 18 samples.

Results

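The effect of losing PGR-A in peri-ovulatory granulosa cells was compared with the effect of losing PGR-B, gene by gene. PGR is the nuclear progesterone receptor, made from a single gene, Pgr, as a long isoform (PGR-B) and a shorter isoform (PGR-A) that starts at an internal start codon. The luteinizing hormone surge induces PGR in granulosa cells, which surround the oocyte and line the follicle's fluid-filled cavity. Female mice without PGR do not ovulate, and in background work on isoform mutants the ovulation defect followed loss of PGR-A, while PGR-B is best known for its role in mammary gland growth.

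The comparison used 12 of the 18 RNA-seq libraries of the series, in 4 groups of 3. The PRAKO strain (allele Pgr tm1Omc) lacks PGR-A, the PRBKO strain (allele Pgr tm2Omc) lacks PGR-B, and each has its own wildtype (WT) group. The remaining 6 libraries, KO and WT of the PRKO strain (allele Pgr tm1Bwo), which lacks both isoforms, entered neither side of the comparison. All females were 21 to 27 days old and received 5 IU of equine chorionic gonadotropin (eCG), then 5 IU of human chorionic gonadotropin (hCG) after 46 h, and were killed 8 h after hCG. The cells of 3 mice were pooled in each library. The KO alleles are present in every tissue, so changes in the pituitary or in other ovarian cells can reach the granulosa cells. Tests compared KO with WT within a strain, and then those effects between strains. Levels set side by side across strains rest on the rescaling described next.

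For each strain a KO effect was calculated as the log2 ratio of KO to WT. The difference of KO effects is the PRAKO effect minus the PRBKO effect, so a negative difference means a gene fell more, or rose less, when PGR-A was missing than when PGR-B was missing. The deposited TPM (a length-corrected share of all transcripts in a library) were summed per gene and rescaled so that protein-coding genes summed to 1000000 in each library. A value of 0.5 was added before the log2. Genes were tested with limma, with a trend of the variance on the level, and called at a Benjamini-Hochberg adjusted p of 0.01 or less with an absolute log2 value of at least 1. TPM do not hold the number of reads, so the depth behind a value is unknown. Whether the 3 libraries of a group came from separate litters or days is not stated, and a p-value measures the spread between those libraries.

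Pgr itself did not check the labels, because the tables hold a single Pgr transcript that covers both isoforms and a changed start codon leaves the transcript in place. Pgr (chr9:8898900-8968611, build GRCm38.p6) was measured at 2.22, 2.20 and 2.69 rescaled TPM in PRAKO WT and at 18.4, 25 and 26 in PRAKO KO. In PRBKO, Pgr was at 3.49, 13.2 and 2.99 in WT and at 5.15, 7.98 and 5.26 in KO. The PRAKO groups did not overlap and the PRBKO groups did. The Pgr difference of 2.85 ± 0.60 (SE, log2, n = 3 per group) missed the threshold at an adjusted p of 0.0106 by limma, although the PRAKO effect of 3.03 was called higher. It passed without the PRBKO WT library 2, whose Pgr was 13.2 (Pgr difference 2.23, adjusted p = 0.00071), and without PRBKO WT 4 (3.22, adjusted p = 0.00613).

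Granulosa markers were high in all 4 groups. Their summed level was 6313 to 7004 rescaled TPM in PRAKO WT, 7630 to 7974 in PRAKO KO, 7599 to 9880 in PRBKO WT and 6697 to 6961 in PRBKO KO. A difference in make-up set the KO libraries of PRBKO apart. Protein-coding genes held 50.9% to 61.2% of their deposited TPM, against 37.7% to 47.8% in the other 9 libraries of the comparison, and they had 8628 to 9914 transcripts at 0 against at least 10343 elsewhere. Over all genes tested, the KO and WT libraries did not overlap in PRBKO for 24.4% of genes in the lower direction but for only 6.92% in the higher direction, and the median PRBKO effect was -0.08. The median PRAKO effect was 0.01 and the median difference was 0.09. The part of this make-up in the results below was not tested apart from the rescaling alternatives of the closing section.

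The strains responded very unequally. Of 16150 genes tested, 339 were called in the difference of KO effects (2.10%), of which 256 were lower (1.59%) and 83 higher (0.514%). In the effects from which the difference is made, PRAKO had 272 genes called lower (1.68%) and 84 called higher (0.520%), whereas PRBKO had 11 called lower (0.0681%) and 2 called higher (0.0124%). On the deposited scale, without rescaling to protein-coding genes, the split of the difference was 256 lower and 40 higher. That scale gave PRAKO 165 lower and 115 higher, and it turned the PRBKO split, to 6 lower and 34 higher. PRBKO had 7 lower and 3 higher by size factors, and 6 lower and 4 higher after quantile normalization. Of the 339 called genes, 320 were protein coding, 12 were long non-coding RNAs, 4 were transcribed pseudogenes and 3 were miRNA hairpins. An absolute log2 difference of 2 or more was seen for 51 of the genes called lower and for 5 of those called higher.

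**Figure D1:**
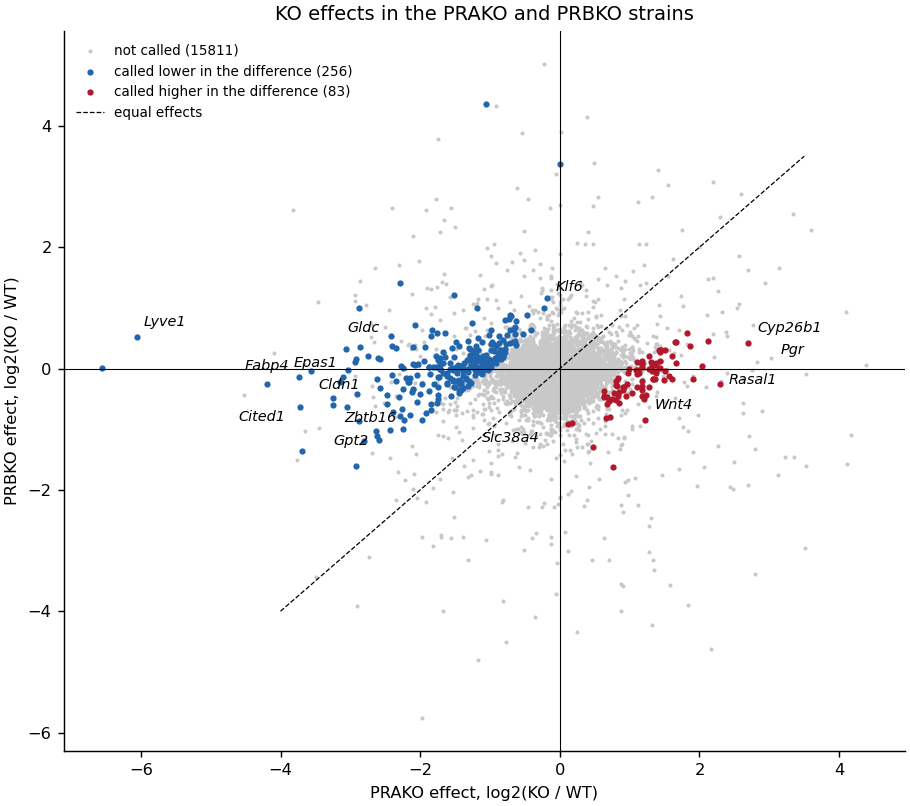
Each point is 1 of 16150 genes, with the PRAKO effect on the x axis and the PRBKO effect on the y axis, both as log2(KO / WT) of rescaled TPM (3 libraries per group). Blue points were called lower in the difference (256), red points higher (83), and the dashed line marks equal effects. The called genes spread along the x axis and mostly lie near 0 on the y axis.

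The called genes fell into patterns when each strain effect was read at an adjusted p of 0.05. Among the 256 lower genes, 185 had a PRAKO effect alone, 34 had effects of the same sign in both strains, 32 had effects of opposite sign and 5 had a PRBKO effect alone. Among the 83 higher genes, these numbers were 72, 1, 5 and 4, and 1 gene had neither effect. The 185 lower genes with a PRAKO effect alone had a median PRAKO effect of -1.43 and a median PRBKO effect of 0.07. These patterns use the same libraries as the difference and describe it without testing it. A PRBKO effect that misses a threshold does not show that the gene was unaffected, so the interval of the difference is given where it matters.

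The transcription regulators taken here from the study's text all fell more in PRAKO than in PRBKO. They are part of a larger set in the study's figure, in which some genes rose in KO. Both the larger set and the genes taken from it were chosen by the study on these libraries and are not independent evidence. Zbtb16, Epas1, Cited1 and Pparg were 4 of 4 called lower in the difference, with a median of -2.48 against 0.09 over all genes. The share called lower over all genes tested was 1.59%. Epas1 (chr17:86753864-86833410), which encodes the hypoxia-inducible factor HIF-2 alpha, was at 524, 518 and 515 rescaled TPM in PRAKO WT and at 66.8, 57.1 and 64.4 in PRAKO KO. In PRBKO it was at 501, 488 and 509 in WT and at 515, 461 and 493 in KO. Epas1 was thus low in the 3 PRAKO KO libraries and level in all others, with overlapping groups in PRBKO. The Epas1 difference was -3.01 ± 0.083 (SE, log2, n = 3 per group), with an adjusted p of 1.44e-08.

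Cited1 (chrX:102247378-102252181), a coregulator that binds CBP and p300 and not DNA, was at 134, 140 and 127 rescaled TPM in PRAKO WT and at 9.42, 8.47 and 11.4 in PRAKO KO. Its PRBKO values were 132, 101 and 147 in WT and 90.1, 70.6 and 83.5 in KO, so the groups were apart in both strains, with a far wider gap in PRAKO. The Cited1 difference was -3.09 ± 0.20 with an adjusted p of 4.58e-06. Pparg (chr6:115360879-115490404), the nuclear receptor of lipid storage, was at 123 to 153 in PRAKO WT and at 25.9 to 32.1 in PRAKO KO, with overlapping PRBKO groups and a difference of -1.95 ± 0.17 (adjusted p = 3.33e-05).

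Zbtb16 (chr9:48651797-48836225), a zinc finger transcription factor also known as PLZF, was the regulator with the clearest PRBKO effect. It was at 93.2, 93.3 and 103 rescaled TPM in PRAKO WT and at 21.0, 22.7 and 20.4 in PRAKO KO. Its PRBKO values were 98.5, 97.7 and 94.9 in WT and 52.7, 61.2 and 57.8 in KO. Both KO groups lay below their WT groups, and PRAKO KO lay below PRBKO KO, a level across strains that rests on the rescaling. The effect was -2.15 in PRAKO and -0.76 in PRBKO, a difference of -1.39 ± 0.091 with an adjusted p of 4.58e-06. In the PRKO libraries, Zbtb16 was at 91.8, 96.1 and 79.1 in WT and at 7.85, 5.62 and 3.63 in KO, an effect of -3.91.

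Genes of adhesion, migration and the actin cytoskeleton gave a similar picture. Of the 6 the study names on these samples, 5 were called lower in the difference, with a median of -1.50. The share called lower over all genes tested was 1.59%. These 6 were also chosen by the study on these libraries, so their lower values are not independent evidence. Cldn1 (chr16:26356645-26371839), a tight junction claudin, was at 21.0, 20.1 and 18.7 rescaled TPM in PRAKO WT and at 1.48, 0.956 and 1.31 in PRAKO KO. In PRBKO it was at 14.8, 19.8 and 16.6 in WT and at 17.5, 17.4 and 14.4 in KO, fully overlapping. The Cldn1 difference was -3.51 ± 0.19 (adjusted p = 1.31e-06).

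Cxcr4, the receptor of the chemokine CXCL12, fell in PRAKO from 442 to 472 rescaled TPM in WT to 211 to 228 in KO, and its PRBKO effect was 0.088, giving a difference of -1.15 ± 0.074 (adjusted p = 3.98e-06). Cdk6, a kinase of the G1 phase, had a difference of -1.73 ± 0.14. Pdlim1, a PDZ-LIM adaptor of alpha-actinin, had a difference of -1.34 ± 0.15 and a PRBKO effect of -0.19. The adaptor Sorbs3 was below the fold limit at -0.67 ± 0.065, with an adjusted p of 8.37e-05. In a broader list of actin stress fibre and focal adhesion genes, 1 of 37 was called lower (Sorbs2, -1.46), against 1.59% of all genes. The median was -0.16, and 32 of the 37 lay below the median of all genes.

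Genes reported as PGR targets in granulosa cells before these libraries were made held fewer calls. Of 12 such genes, 1 was called lower, the sheddase gene Adam8 at -2.65 ± 0.13, and the median was -0.65. The share called lower over all genes tested was 1.59%. Adamts1, the versican-cleaving protease, was at 976, 1019 and 1022 rescaled TPM in PRAKO WT and at 563, 577 and 534 in PRAKO KO. Adamts1 in PRBKO was at 841, 652 and 828 in WT and at 1015, 770 and 740 in KO. Its difference of -0.97 ± 0.17 had an adjusted p of 0.00409 but lay just under the fold limit. Prkg2, cGMP-dependent protein kinase II, had a larger difference, -1.52 ± 0.32, that missed the p threshold (adjusted p = 0.0115), since the PRBKO WT libraries spread from 68.2 to 134. The Prkg2 difference passed without the highest of them, PRBKO WT 2, at -1.83 with an adjusted p of 0.000362, and without PRBKO KO 1, at an adjusted p of 0.00999. The Adamts1 difference passed the fold limit, at -1.02 to -1.05, without PRBKO WT 1, WT 4, KO 2 or KO 3. Edn2, which encodes the constrictor peptide endothelin 2, was at -0.95 ± 0.37 (adjusted p = 0.128). By size factors 4 of the 12 were called lower, and on the deposited scale 3.

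The widest difference among protein-coding genes was that of Lyve1 (chr7:110850607-110862953), a hyaluronan receptor used as a marker of lymphatic endothelium. Lyve1 was at 316, 296 and 331 rescaled TPM in PRAKO WT and at 5.21, 2.83 and 5.00 in PRAKO KO. Its PRBKO values were 184, 180 and 229 in WT and 350, 219 and 293 in KO. Only the PRAKO KO libraries were low, and the PRBKO groups overlapped. The Lyve1 difference was -6.58 ± 0.30 (adjusted p = 3.76e-07). Of 7 lymphatic markers tested, Lyve1 was the only one called, and the other 6 summed to 82 to 90.7 rescaled TPM in PRAKO WT and to 71.6 to 82.3 in PRAKO KO, and to 60.8 to 83.8 in PRBKO WT and 51.2 to 63.9 in PRBKO KO. The list median difference was 0.26, and 2 of the 7 lay below the all-gene median. Their part in the Lyve1 result was not tested, and in bulk samples fewer cells of a type and less RNA per cell cannot be told apart.

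Of 13 blood endothelial markers tested, 1 was called lower, against 1.59% of all genes tested. It was Cdh5, VE-cadherin, at -1.80 ± 0.15 (adjusted p = 2.36e-05), and all 13 lay below the median difference of all genes. Without Cdh5 the list summed to 74.1 to 82 rescaled TPM in PRAKO WT and to 50.9 to 64.5 in PRAKO KO, against 50.2 to 64.6 in PRBKO WT and 52.8 to 62 in PRBKO KO. Markers of macrophages and leukocytes summed to 103 to 107 in PRAKO WT and to 71.3 to 90.6 in PRAKO KO, with 0 of 12 called. The part of these cells in the PRAKO effect was not tested.

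Several further genes lost most of their transcript without PGR-A and kept most of it, or rose, without PGR-B. Fabp4 (chr3:10204342-10208616), a fatty acid binding protein, was at 261, 216 and 176 rescaled TPM in PRAKO WT and at 18.6, 15.4 and 13.5 in PRAKO KO. In PRBKO, Fabp4 was at 131, 174 and 158 in WT and at 163, 137 and 121 in KO, and its difference was -3.60 ± 0.24 (adjusted p = 4.81e-06). Of 18 PPARG lipid targets known from fat cells, Fabp4 was the 1 called in the difference, against 2 after quantile normalization. The list median was -0.07, and 1.59% of all genes tested were called lower.

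Sphk1 (chr11:116530836-116536675), which makes the lipid mediator sphingosine 1-phosphate, was at 88.1, 86.9 and 73.1 rescaled TPM in PRAKO WT and at 9.67, 12.8 and 10.4 in PRAKO KO. It was at 59.3 to 79.3 in PRBKO WT and at 83.6 to 88.0 in PRBKO KO, and the difference was -3.21 ± 0.17 (adjusted p = 1.25e-06). Kcne4, an accessory subunit of potassium channels, had a difference of -3.37 ± 0.18, Krtdap, a keratinocyte differentiation gene, -3.87 ± 0.47, and Dysf, the membrane repair protein dysferlin, -2.72 ± 0.11. The tightest of the large differences was that of Jcad, a protein of endothelial cell junctions, at -3.08 ± 0.074 (adjusted p = 7.18e-09), from 112 to 118 rescaled TPM in PRAKO WT to 14.3 to 15.1 in KO. The other genes among the 20 most negative were Ripply1, Rtl1, Gldc, Ppp1r36, Hopx, Ntn5, Fam210b, Myh13 and Helt, at differences of -2.97 to -2.72. Of these, Myh13 also fell in PRBKO (effect -0.49), whereas Gldc, Fam210b and Helt rose there (0.54, 0.37 and 1.21). Rtl1 is an imprinted gene with antisense transcripts, and reads of both could be mixed where strand was not used.

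A pseudogene record had the second most negative difference of all. Sprr2g, related to the small proline-rich proteins of keratinized epithelium and chosen here after its values were seen, was at 527, 447 and 398 rescaled TPM in PRAKO WT and at 5.36, 3.16 and 4.84 in PRAKO KO. Sprr2g was at 309, 474 and 361 in PRBKO WT and at 395, 341 and 400 in PRBKO KO, and the difference was -6.56 ± 0.27. Because the Sprr2 family has near-identical members, the assignment of reads to Sprr2g is uncertain.

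Metallothioneins and glutathione genes contributed 5 of their 24 tested members to the genes called lower and 0 to those called higher. The list median was -0.32, and over all genes tested 1.59% were called lower and 0.514% higher. Mt2, a metal-binding metallothionein, was at 1855, 1957 and 1584 rescaled TPM in PRAKO WT and at 228, 238 and 238 in PRAKO KO. In PRBKO, Mt2 was at 1184 to 1510 in WT and at 1468 to 1534 in KO, and its difference was -3.04 ± 0.14 (adjusted p = 3.76e-07). Mt1 was at 1948 to 2316 in PRAKO WT and at 723 to 745 in PRAKO KO, a difference of -1.67 ± 0.098. Gclc, the catalytic subunit of glutathione synthesis, was called at -1.28 ± 0.077. Gstm1 was called at -1.99 ± 0.12 and Gstm2 at -1.93, but the Gstm genes share sequence with each other and the reads of each are uncertain.

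Promoter sequences were searched for the palindromic progesterone response element, since a direct target may hold one close to its start. The motif GNACANNNTGTNC was matched on both strands in the 250 bases before the start in RefSeq of build GRCm38.p6. Promoters were searched for 189 of the 256 genes called lower and for 62 of the 83 called higher. The remaining called genes were not searched, and a motif in their promoters was not tested. The motif was found for 2 genes called lower (1.06%) and for 0 called higher. It was found for 0.351% of 11972 genes tested but not called and for 0.44% of all 27025 genes searched. The 2 matches, in Fyb2 and Mt1, are shown with 30 bases around the motif, the motif in capitals. They are shown because they are the matches among the called genes searched. They lie at chr4:104913311-104913340 and chr8:94178987-94179016, both on the plus strand, and the motif begins 247 and 94 bases before the start that the promoter table uses. For Mt1 that start lies inside the gene record (chr8:94178883-94180327), so the stretch shown does too.
Fyb2: tagGGACAAGATGTACtcagctctcagaaa
Mt1: cactatagGGACATGATGTTCcacacgtca

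Fyb2, named here for its motif, had a difference of -2.34 ± 0.24 (adjusted p = 0.000117), with a PRAKO effect of -1.76. Cldn1 and Wnt4, a gene that fell and a gene that rose with loss of PGR-A, are shown as promoters without the motif. Capitals mark the GC box (GGGCGG, either strand, overlaps included). Among the genes searched, it was present for 59.3% of those called lower, 58.1% of those called higher and 59.7% of those tested but not called. The Cldn1 stretch is chr16:26371840-26372089 on the minus strand, and the Wnt4 stretch is chr4:137277385-137277634 on the plus strand.
Cldn1: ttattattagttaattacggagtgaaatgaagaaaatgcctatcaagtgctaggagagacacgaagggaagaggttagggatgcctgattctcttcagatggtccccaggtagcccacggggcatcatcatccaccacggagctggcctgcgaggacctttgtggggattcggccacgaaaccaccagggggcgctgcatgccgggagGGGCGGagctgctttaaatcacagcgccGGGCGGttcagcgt
Wnt4: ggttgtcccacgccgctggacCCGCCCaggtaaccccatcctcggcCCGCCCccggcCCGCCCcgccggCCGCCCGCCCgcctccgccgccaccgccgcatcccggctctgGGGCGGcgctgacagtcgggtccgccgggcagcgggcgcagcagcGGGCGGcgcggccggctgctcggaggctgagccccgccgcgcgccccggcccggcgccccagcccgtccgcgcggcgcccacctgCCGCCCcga

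The Cldn1 stretch held 2 GC boxes and the Wnt4 stretch 8. A promoter without a match says only that these letters are not in its window.

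**Figure D2:**
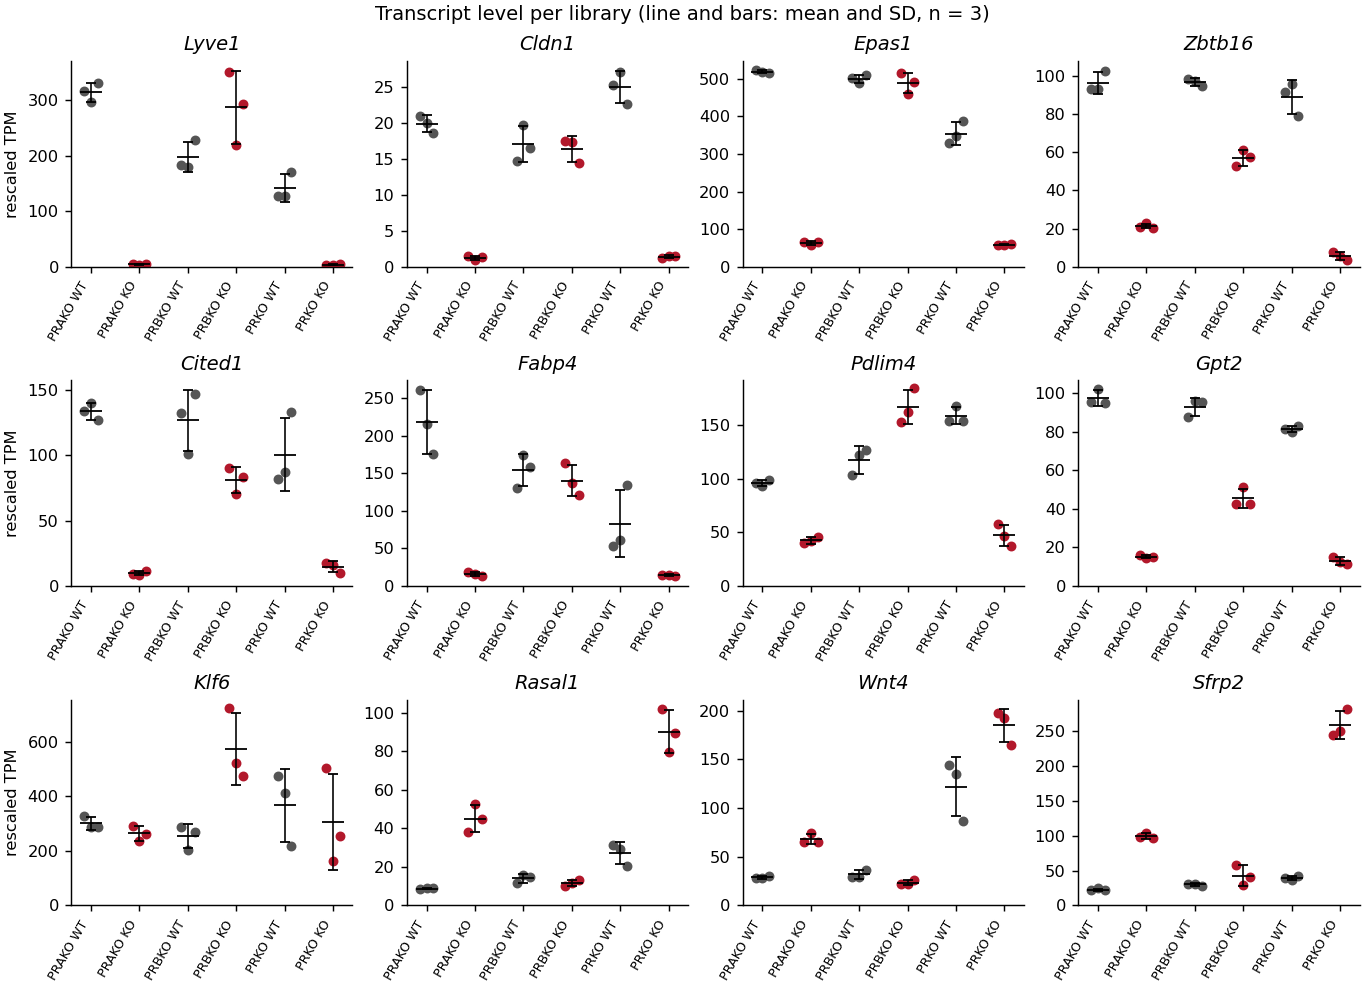
Rescaled TPM per library (points) for 12 genes in the WT (grey) and KO (red) groups of the 3 strains, with the mean and SD of 3 libraries. Lyve1, Cldn1, Epas1 and Fabp4 are low only in the PRAKO and PRKO KO libraries, Zbtb16 and Gpt2 are intermediate in PRBKO KO, Klf6 is high in PRBKO KO, and Rasal1, Wnt4 and Sfrp2 are higher in PRAKO KO than in PRAKO WT and higher still in PRKO KO, with Wnt4 also at 86.9 to 144 in PRKO WT.

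Ovulatory signalling genes outside PGR itself differed in a few members. In the list of EGF, cumulus expansion and prostaglandin genes, 3 of 21 were called lower and 0 higher, with a median of -0.37. The shares over all genes tested were 1.59% and 0.514%. Slco2a1, the prostaglandin transporter, was at 302, 310 and 290 rescaled TPM in PRAKO WT and at 52.9, 56.7 and 52.4 in KO, and its PRBKO values were 206, 189 and 189 in WT and 122, 121 and 146 in KO. Both strains were apart, and the Slco2a1 difference was -1.88 ± 0.10 (adjusted p = 1.25e-06). Egfr, the EGF receptor, was called at -1.37 ± 0.13 and Ptgs1, the constitutive cyclooxygenase, at -1.01 ± 0.091. Ptgs1 lay at the fold limit, and the Ptgs1 difference was under the fold limit, down to -0.97, without PRAKO WT 3, KO 3 or KO 4 or PRBKO WT 1, WT 4 or KO 2. Ptgs2, the inducible cyclooxygenase, was not called, at -0.37 with a 95% interval of -0.78 to 0.03. Has2, the hyaluronan synthase of the cumulus matrix, was at -0.59 ± 0.11 and Tnfaip6, which links that matrix, at -0.78 ± 0.27, neither called.

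Of 24 hypoxia-response genes, 4 were called lower and 1 higher, against 1.59% and 0.514% of all genes tested, with a median of -0.05. Pfkfb3 and Pfkfb4, which set the level of a glycolytic activator, were called at -1.60 ± 0.094 and -1.29 ± 0.10, the collagen cross-linking oxidase gene Loxl2 at -1.33 ± 0.099 and the stress gene Ndrg1 at -1.30 ± 0.22. The Ndrg1 difference missed the threshold without PRAKO KO 4 (adjusted p = 0.0118) or PRBKO WT 4 (adjusted p = 0.01 after rounding). Egln3, an oxygen-sensing hydroxylase, was called higher at 1.12, and on the deposited scale 0 of the list were called higher. None of 34 nuclear-encoded respiratory chain genes (median 0.04), none of 23 cholesterol synthesis genes (median 0.05) and none of 34 ribosomal protein genes (median 0.10) were called by limma, although 27.9% of all genes tested had an unadjusted p under 0.05.

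A graded loss, with a smaller fall in PRBKO, was seen for 34 genes. Of the 11 genes called lower in PRBKO, 7 (63.6%) were also called lower in the difference. These 7 have this form by definition, since both calls together require a larger fall in PRAKO. Gpt2 (chr8:85492576-85528902), the mitochondrial alanine aminotransferase, was at 95.3, 102 and 94.7 rescaled TPM in PRAKO WT and at 16.2, 14.4 and 15.3 in PRAKO KO. In PRBKO it was at 87.4, 95.8 and 95.3 in WT and at 42.4, 51.1 and 42.7 in KO. The effect was -2.63 in PRAKO and -1.03 in PRBKO, and the Gpt2 difference was -1.61 ± 0.11 (adjusted p = 5.48e-06).

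Ldhd, the D-lactate dehydrogenase, fell by 2.59 on the log2 scale in PRAKO and by 1.18 in PRBKO, with a difference of -1.41 ± 0.15. Porcn, the acyltransferase that WNT ligands need for secretion, fell by 2.62 and 1.12, with a difference of -1.50 ± 0.17. Tmem255a, a membrane protein, was at 13.5, 13.7 and 16.5 rescaled TPM in PRAKO WT, 0.483 to 0.809 in PRAKO KO, 11.5 to 13.6 in PRBKO WT and 4.41 to 4.92 in PRBKO KO, a difference of -2.33 ± 0.18. The other 3 were the potassium channel gene Kcnv2 (-1.32 ± 0.22), Apbb3 (-1.24 ± 0.10), whose product binds amyloid precursor protein, and the cytochrome P450 gene Cyp2j11 (-1.60 ± 0.19), which has close paralogs that could share its reads. The Kcnv2 difference missed the threshold, at adjusted p of 0.0102 to 0.0109, without PRAKO WT 2, PRAKO KO 4 or PRBKO WT 4.

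The WNT receptor gene Fzd1 fell from 186 to 202 rescaled TPM in PRAKO WT to 38.9 to 44.8 in KO and, in PRBKO, from 149 to 168 in WT to 111 to 136 in KO. Its difference was -1.90 ± 0.12 (adjusted p = 3.69e-06). Cited4, a relative of Cited1, was the 1 gene called higher in the difference whose effects were above 0 in both strains at an adjusted p of 0.05 or less. It was at 380, 394 and 359 rescaled TPM in PRAKO WT and at 1337, 1342 and 1326 in PRAKO KO, and at 369, 305 and 344 in PRBKO WT and 589, 439 and 513 in PRBKO KO. The Cited4 effect was 1.82 in PRAKO and 0.59 in PRBKO, a difference of 1.23 ± 0.14 (adjusted p = 0.000210).

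In 37 genes the strains moved in opposite directions, each effect at an adjusted p of 0.05 or less, and in all 37 the KO and WT libraries were apart in both strains. This group is set by the values themselves and gets no further test. The adjusted p cut in both strains already selects for separated groups. KO and WT did not overlap in PRAKO for 15.3% of all genes tested in the lower direction and 16.9% in the higher. In PRBKO these shares were 24.4% and 6.92%. The signs stayed opposite in all 37 under the 3 other scalings, with both effects still at 0.05 or less in 25 on the deposited scale, 31 by size factors and 32 by quantile normalization. On the deposited scale the same definition held for 125 genes, so its size depends on the scaling.

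Pdlim4 (chr11:54054928-54069032), an actin-associated PDZ-LIM adaptor, was at 96.0, 93.5 and 98.8 rescaled TPM in PRAKO WT and at 39.9, 41.8 and 45.9 in PRAKO KO. In PRBKO it was at 103, 122 and 127 in WT and at 153, 162 and 184 in KO. It fell in the first strain and rose in the second, and the Pdlim4 difference was -1.67 ± 0.12 (adjusted p = 1.10e-05). Gldc (chr19:30098441-30175441), the glycine decarboxylase of the glycine cleavage system, was at 18.6, 18.2 and 19.4 in PRAKO WT and at 2.63, 3.79 and 2.97 in KO, and at 11.7, 12.2 and 10.8 in PRBKO WT and 15.7, 17.5 and 17.8 in KO. The Gldc difference was -2.96 ± 0.15.

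Zcchc24, a zinc knuckle gene, had effects of -1.26 in PRAKO and 0.75 in PRBKO. Fam210b, which encodes a mitochondrial membrane protein, had effects of -2.41 and 0.37, and the small heat shock protein gene Cryab -1.18 and 1.00. Net1, a guanine nucleotide exchange factor, was at 240 to 260 rescaled TPM in WT and 145 to 149 in KO of PRAKO and at 214 to 239 in WT and 325 to 335 in KO of PRBKO, a difference of -1.32 ± 0.068.

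Signalling feedback and receptor genes were also in this group. Errfi1, an inhibitor of the EGF receptor, had effects of -0.70 in PRAKO and 0.86 in PRBKO. Dusp8, a phosphatase of MAP kinases, had -0.71 and 0.89, Met, the receptor of hepatocyte growth factor, -0.63 and 0.79, Vdr, the vitamin D receptor, -0.73 and 0.81, and S100a10, the annexin A2 partner, -1.11 and 0.43. Nfil3, a clock-linked repressor, had -0.87 and 0.42, and Penk, the enkephalin precursor, -1.23 and 0.27. The Dusp8 difference lost its call, at adjusted p of 0.0128 to 0.0154, without PRAKO KO 2, PRAKO KO 4 or any of the 3 PRBKO WT libraries. None of the 37 was called in PRBKO at the stricter threshold of 0.01 with a fold limit.

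Only 5 of the 37 rose in PRAKO and fell in PRBKO. They were Wnt4, the corepressor gene Tle2 (effects 1.17 and -0.45), the prostaglandin D synthase gene Ptgds (0.72 and -0.80), the AMPA receptor-associated Shisa6 (0.81 and -0.52) and the cytoskeletal Obsl1 (0.63 and -0.37).

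**Figure D3:**
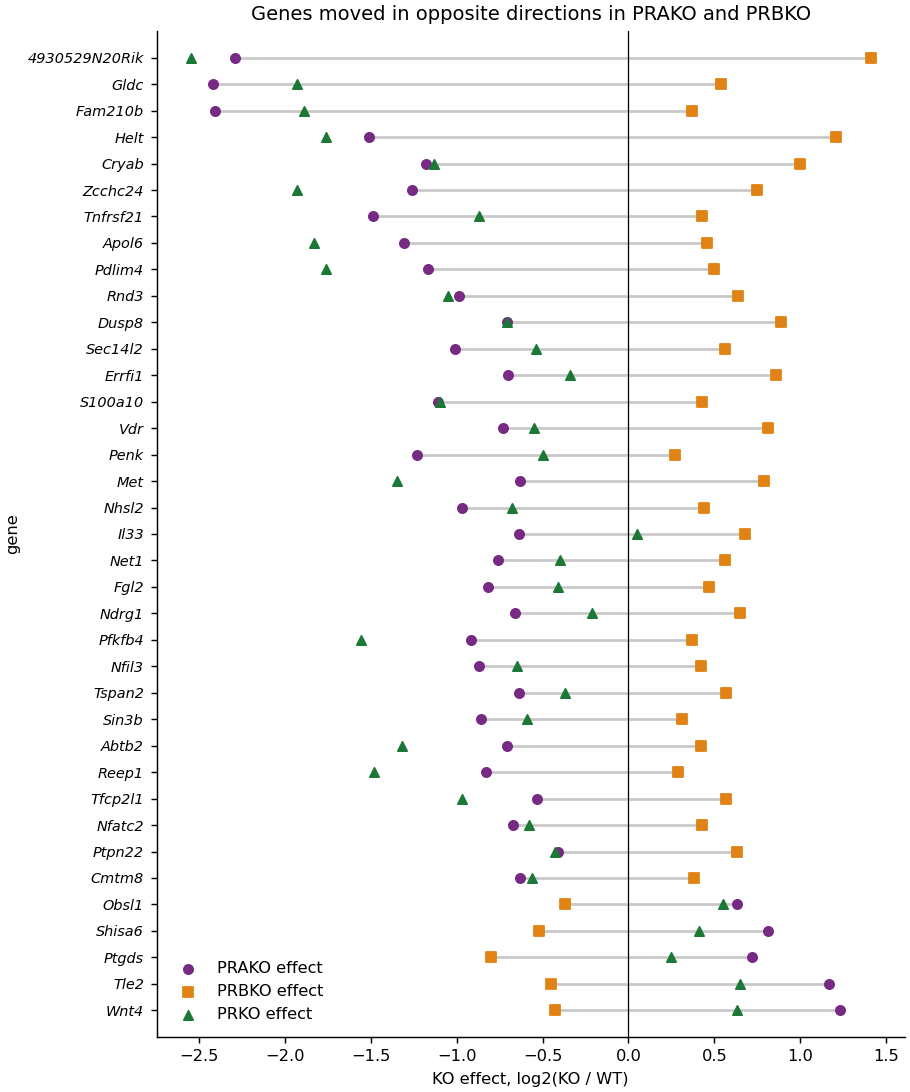
KO effects, as log2(KO / WT), of the 37 genes called in the difference with effects of opposite sign in PRAKO (purple circles) and PRBKO (orange squares), with the PRKO effect (green triangles). In 32 genes PRAKO is below 0 and PRBKO above it, and in 36 of 37 the PRKO effect has the sign of the PRAKO effect. Among all genes called, the PRKO effect has the sign of the difference for 251 of 256 lower and 76 of 83 higher.

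Few differences rested on PRBKO alone. Of the 256 genes called lower, PRBKO KO lay wholly above WT in 71, wholly below in 53 and overlapped in 132. Over all genes tested, 6.92% lay wholly above and 24.4% wholly below in PRBKO. A call in the difference itself selects for such separation. Klf6 (chr13:5861489-5870393), an early-response zinc finger factor, was at 328, 289 and 287 rescaled TPM in PRAKO WT and at 292, 238 and 262 in PRAKO KO, overlapping. The PRBKO libraries were at 288, 205 and 270 in WT and at 724, 522 and 474 in KO. The PRBKO effect of 1.16 was called, and the Klf6 difference was -1.36 ± 0.23 (adjusted p = 0.00313). Klf2, a related factor, was at 282 to 305 in PRBKO WT and at 522 to 740 in PRBKO KO, a difference of -1.20 ± 0.21 (adjusted p = 0.00354). For both genes the PRBKO KO library numbered 1 was the highest. Both calls were near the threshold. The Klf6 difference had an adjusted p of 0.0102 without PRAKO WT 1 and 0.0101 without PRAKO KO 4, and the Klf2 difference 0.012 without PRAKO KO 4 and 0.0115 without PRBKO WT 1.

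With Klf15 at -1.32 ± 0.17, 3 of 15 Kruppel-like factors were called lower, in a list drawn up with Klf2 and Klf6 already known. The share called lower over all genes tested was 1.59%. The immediate-early list was also drawn up with Klf6 and Klf2 known. Its median effect was 0.48 in PRBKO and 0.23 in PRAKO, 21 of 26 lay below the all-gene median of the difference, and 3 were called lower. Fosl1, an AP-1 subunit, was the third of these beside Klf2 and Klf6, and its difference of -1.22 ± 0.20 came with a PRAKO effect of -1.11. The only other gene called higher in PRBKO was the hairpin Mir346, listed at 3.66, 7.71 and 3.52 rescaled TPM in PRBKO KO and at 0 in the other 15 libraries. Its record is very short (chr14:34894609-34894706), and the number of reads behind these values is unknown. The PRBKO KO libraries also had fewer transcripts at 0 than all others, and the part of this in the Mir346 values was not tested.

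Most genes called higher in the difference rose in the absence of PGR-A. Rasal1 (chr5:120648040-120679597), a Ras GTPase-activating protein, was at 8.28, 9.04 and 8.87 rescaled TPM in PRAKO WT and at 38.2, 52.4 and 44.6 in PRAKO KO. The PRBKO libraries were at 11.6, 15.9 and 14.7 in WT and at 10.1, 11.4 and 13.2 in KO, overlapping. The Rasal1 difference was 2.56 ± 0.20 (adjusted p = 1.46e-05).

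Retinoid and WNT genes were among the largest rises. Cyp26b1 (chr6:84571414-84593908), which degrades retinoic acid, was at 1.53, 1.56 and 1.37 rescaled TPM in PRAKO WT and at 12.6, 11.3 and 13.3 in PRAKO KO. Its PRBKO values were 1.10, 2.68 and 1.81 in WT and 2.11, 2.86 and 2.72 in KO. The Cyp26b1 difference was 2.28 ± 0.30 (adjusted p = 0.000564). Cyp26b1 was the only 1 of 16 retinoic acid genes called, in a list drawn up with it known, and 0.514% of all genes were called higher. Adh7, an alcohol dehydrogenase that can oxidize retinol, was called at 1.99 ± 0.28.

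Wnt4 (chr4:137277635-137299501), a WNT ligand of ovarian development, was at 27.7, 28.4 and 30.5 rescaled TPM in PRAKO WT and at 65.5, 74.3 and 65.4 in PRAKO KO. In PRBKO it was at 29.4, 29.1 and 36.7 in WT and at 21.6, 22.2 and 26.4 in KO, and the Wnt4 difference was 1.66 ± 0.14 (adjusted p = 3.48e-05). Sfrp2 (chr3:83765750-83774314), a secreted WNT antagonist, was at 21.8, 24.3 and 21.6 in PRAKO WT and at 98.7, 104 and 96.1 in PRAKO KO. Sfrp2 in PRBKO was at 31.4, 31.4 and 27.4 in WT and at 58.1, 29.0 and 41.5 in KO, and its difference was 1.67 ± 0.26 (adjusted p = 0.00206). In the list of WNT and BMP modulators, drawn up with Sfrp2 known, 2 of 25 were called higher and 1 lower. The list median was 0.00 after rounding, and the shares over all genes tested were 0.514% higher and 1.59% lower.

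The rest of the 15 most positive genes had varied roles. Olfml2b, an extracellular olfactomedin-like protein, was at 9.60, 10.1 and 10.1 rescaled TPM in PRAKO WT and at 35.5, 46.8 and 34.8 in KO, with PRBKO libraries at 9.98 to 12.4, and a difference of 2.08 ± 0.15. The WNT ligand gene Wnt10b had a difference of 2.07 ± 0.36, the hyaluronan-degrading Cemip 1.77 ± 0.21, the natriuretic peptide clearance receptor Npr3 1.68 ± 0.23 and the oxytocin receptor Oxtr 1.53 ± 0.22. The engulfment receptor gene Megf10 was at 1.71 ± 0.28, and the neurotransmitter receptor genes Gabra5 and Gria4 were at 1.57 ± 0.26 and 1.53 ± 0.20. The Wnt10b difference missed the threshold, at adjusted p of 0.0101 to 0.0112, without PRAKO WT 2, PRBKO WT 2 or PRBKO KO 1, and the Gabra5 difference, at 0.0103, without PRAKO KO 4. The uncharacterized LOC100861978 (1.76 ± 0.28) differed mainly through a PRBKO effect of -1.29.

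None of 19 steroidogenesis genes was called in the difference by limma, against 1 called higher after quantile normalization, and the list median was 0.39, with 5 of 19 below the all-gene median. Cyp11a1, the side-chain cleavage enzyme that starts steroid synthesis, was at 1141, 1036 and 970 rescaled TPM in PRAKO WT and at 1912, 2451 and 2214 in KO. Cyp11a1 in PRBKO was at 1045 to 1353 in WT and at 1204 to 1447 in KO, and its difference of 0.92 ± 0.16 (adjusted p = 0.00429) lay under the fold limit. The Cyp11a1 difference passed that limit, at 1.02, without PRAKO KO 2 or PRBKO WT 1. Hsd17b1, which makes estradiol from estrone, was at 187, 196 and 200 rescaled TPM in PRAKO WT and at 261, 260 and 287 in KO, and at 261, 335 and 248 in PRBKO WT and 180, 203 and 197 in KO. Its groups were apart in both strains, in opposite directions. The Hsd17b1 difference lay at the fold limit, with an adjusted p of 0.000886, and was called higher in 9 of the alternatives tried. Of 10 luteal markers tested, 1 was called higher and 1 lower, against 0.514% and 1.59% of all genes tested. Ptgfr, the prostaglandin F receptor of luteal cells, was called higher at 1.49 ± 0.15, and Parm1 was called lower at -1.31. The luteal list without Ptgfr and Parm1 summed to 6837 to 7244 in PRAKO WT, 9550 to 10662 in PRAKO KO, 6922 to 7873 in PRBKO WT and 7948 to 8147 in PRBKO KO.

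The granulosa markers had a list median of 0.71, made of 0.23 in PRAKO and -0.52 in PRBKO, with 0 of 13 called by the main scaling and 1 called higher after quantile normalization. Foxl2, a transcription factor of granulosa identity, was at 75 to 82.2 rescaled TPM in PRAKO WT and at 92.0 to 105 in KO, and at 105 to 114 in PRBKO WT and 68.9 to 81.7 in KO. The Foxl2 difference was 0.84 ± 0.10 (adjusted p = 0.000402). Fst, follistatin, went the other way at -0.64 ± 0.073.

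**Figure D4:**
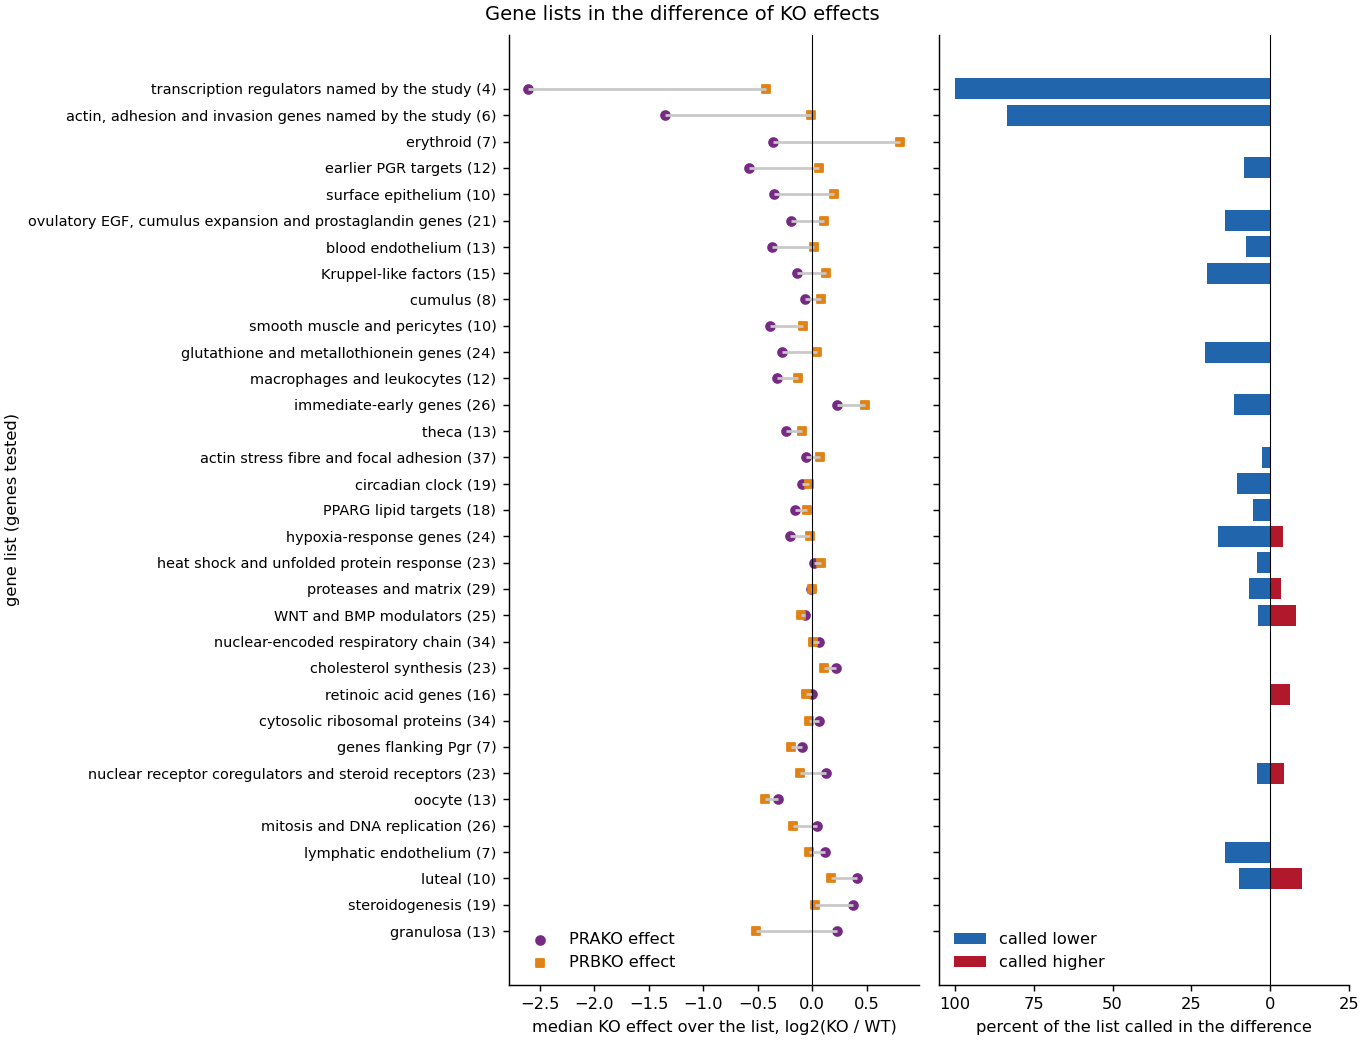
The left panel plots the median KO effect of each gene list, as log2(KO / WT), in PRAKO (circles) and PRBKO (squares), with the number of genes tested in brackets. The right panel plots the percent of each list called lower (blue) or higher (red) in the difference. The lists named by the study, which were chosen on these libraries, reach 4 of 4 and 5 of 6.

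The remaining lists held few calls, and over all genes tested 1.59% were called lower and 0.514% higher. Of 29 proteases and matrix genes, 2 were called lower (Adam8 and Mmp19) and 1 higher (Mmp15), with a median of -0.01. On the deposited scale and by size factors 4 were called lower, and on the deposited scale and after quantile normalization 0 were called higher. Of 23 coregulators and steroid receptors, Tsc22d3 was called lower and Cited4 higher (median 0.16), with 2 lower on the deposited scale and by size factors. Hspb1 was called lower among 23 heat shock genes (median -0.02), and 0 of 26 mitosis genes were called (median 0.23). Of the 7 tested genes that flank Pgr on chromosome 9, 0 were called (median 0.11).

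Marker lists of other cells gave 0 calls for theca (median -0.17), cumulus (-0.34), smooth muscle (-0.33), surface epithelium (-0.52), oocyte (0.19) and erythroid cells (-1.04). The erythroid genes spread widely within groups, with summed levels of 204 to 657 rescaled TPM in PRAKO WT and 183 to 787 in PRAKO KO. In PRBKO they summed to 161 to 439 in WT and to 439 to 613 in KO. The erythroid median effect was -0.36 in PRAKO and 0.81 in PRBKO, and all 7 genes lay below the all-gene median of the difference. The part of blood cells in these values was not tested. These counts of 0 come from limma at the adjusted threshold, and a gene of these lists could still differ by less than the fold limit.

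Not every PRAKO change differed from PRBKO. Of the 356 genes called in PRAKO, 101 were not called in the difference, and for 23 of those the difference had an adjusted p of 0.01 or less but was under the fold limit. For 29 the difference had an adjusted p above 0.05, and in 8 of these the PRBKO effect had the same sign at an adjusted p of 0.05 or less. These 8 were selected after their values were seen. Slc38a4, an amino acid transporter, was at 13.1, 15.3 and 14.7 rescaled TPM in PRAKO WT and at 5.91, 4.75 and 6.74 in KO, and at 14.1, 13.3 and 15 in PRBKO WT and 6.26, 8.97 and 5.87 in KO. Both strains fell, by 1.25 and by 0.98 on the log2 scale, and the Slc38a4 difference was -0.27 with a 95% interval of -0.75 to 0.22.

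Rapgef5, an exchange factor for Rap GTPases, had a PRAKO effect of -1.08, a PRBKO effect of -0.85 and a difference of -0.22 (95% interval -0.66 to 0.21). Asic4, of the acid-sensing ion channel family, had a difference of -0.11 (95% interval -0.61 to 0.40). Adcyap1, the precursor of the peptide PACAP, rose in both strains, by 1.39 in PRAKO and by 0.74 in PRBKO, and its difference of 0.65 had a 95% interval of 0.22 to 1.07 and an adjusted p of 0.0501. These intervals leave room for a modest difference and do not show equal effects. In PRKO the effect was -1.59 for Slc38a4, -0.37 for Rapgef5, -0.27 for Asic4 and 1.7 for Adcyap1. For the remaining genes of this group it was -0.64 (Hand2), -0.6 (Clec2d), -0.019 (Scarna6) and 0.085 (Mir6516).

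The PRKO libraries, which lack both isoforms and entered no part of the difference, were read for the same genes. In their own fit, 229 genes were called lower (1.42%) and 47 higher (0.291%). Of the 256 genes called lower in the difference, 155 were also called lower in PRKO, which is 60.5% of the first list and 67.7% of the second. Of the 83 called higher, 17 were called higher in PRKO, which is 20.5% and 36.2%. No called gene had the opposite call in PRKO. The PRKO groups did not overlap, in the same direction, for 230 of the 256 and for 55 of the 83, against 13.5% of all genes tested in the lower direction and 12.5% in the higher.

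The number of PRKO calls hung on single libraries. Without the PRKO WT library 1, WT 2, KO 2 or KO 3, PRKO calls went from 276 to 140, 150, 172 and 174. The lower genes shared with the difference went from 155 to 91 without WT 1 and 94 without WT 2. Shared higher genes went from 17 to 4, 5, 9, 9 and 6 without WT 1, WT 2, KO 1, KO 2 and KO 3.

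Among the genes called lower, those with a PRAKO effect alone had a median PRKO effect of -1.35, beside their PRAKO median of -1.43. The 34 graded genes had medians of -2.24 in PRAKO, -0.65 in PRBKO and -1.96 in PRKO, and 32 of them were called lower in PRKO. For Cldn1 the PRKO effect was -3.77 ± 0.13, for Epas1 -2.60 ± 0.071, for Lyve1 -5.14 ± 0.18 and for Sphk1 -2.81 ± 0.10. Among the 37 genes of opposite sign, the PRKO effect lay nearer the PRAKO than the PRBKO effect in 36, and 12 were called in the PRAKO direction. The share of all genes with the PRKO effect nearer to PRAKO was not calculated. Klf6 had a PRKO effect of -0.34 ± 0.47, with KO libraries at 503, 162 and 256 rescaled TPM that overlapped WT.

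Genes called higher moved less in PRKO. Their median effect was 1.18 in PRAKO and 0.63 in PRKO. Rasal1 rose in PRKO from 20.5 to 31.6 rescaled TPM in WT to 79.4 to 102 in KO, and Sfrp2 from 36.7 to 42.5 to 244 to 282. Wnt10b had a PRKO effect of 0.30 ± 0.34, Cemip of 0.50 ± 0.32 and Oxtr of 0.15 ± 0.19, and these were not called. In PRKO WT their means were already above those of PRAKO KO. The means were 35.1 against 13.8 for Wnt10b, 72.4 against 44.4 for Cemip and 31.2 against 21.5 for Oxtr. PRKO WT also spread, with Wnt10b at 41.9, 44.1 and 19.2 rescaled TPM. Such levels across strains rest on the rescaling, and their part in the PRKO effects was not tested. Across all genes tested, the Pearson correlation of effects was 0.42 between PRAKO and PRKO, 0.04 between PRAKO and PRBKO and 0.09 between PRBKO and PRKO. Genes are not independent replicates, and these values describe the libraries and carry no test.

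**Figure D5:**
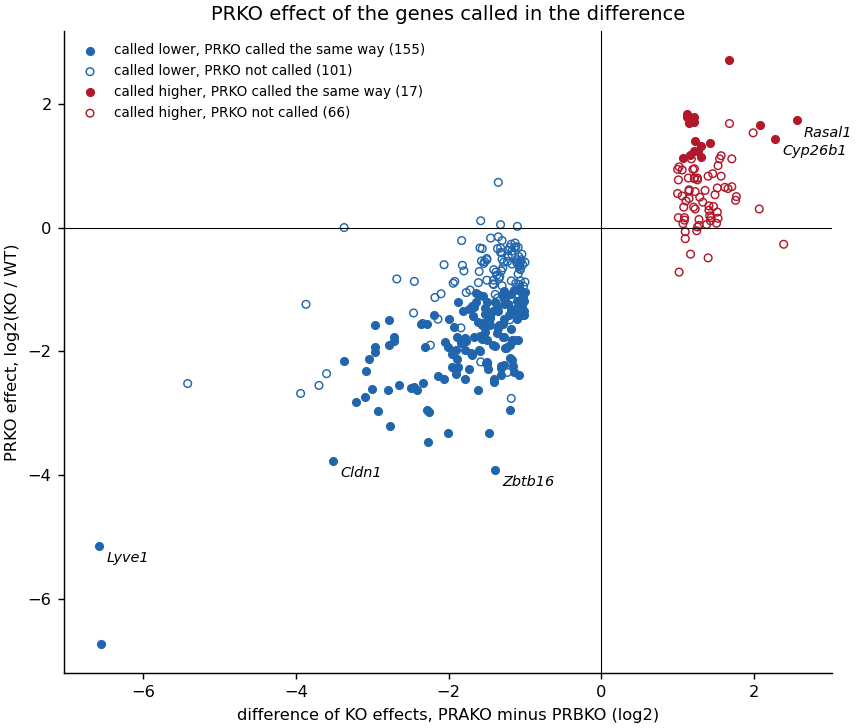
Each point is 1 of the 339 genes called in the difference, with the difference of KO effects (PRAKO minus PRBKO, log2) on the x axis and the PRKO effect, log2(KO / WT), on the y axis. Filled points were called in PRKO in the same direction (155 lower, 17 higher), and no gene was called in the opposite direction.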

How the data were processed

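Reads of granulosa cell RNA were processed by the authors, who per the study's methods used FastQC, AdapterRemoval and Salmon with the GENCODE M25 transcriptome of GRCm38.p6; the sources used here give no versions. The deposited values are TPM per transcript in 1 table per strain, each column summing to 1000000. The tables list RefSeq transcripts, and why they differ from the stated transcriptome is not given.

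TPM were summed per RefSeq gene and divided by the protein-coding total. This took out the non-coding RNAs, above all 7S RNA (Rn7s2), which held 24.1% to 47.8% of TPM, and levels set beside each other across strains rest on it. Genes with at least 1 rescaled TPM in 3 of the 12 libraries were kept. Library totals and read depth are unknown because TPM keeps neither, so no counting interval was possible. The spread within the groups of 3 libraries sets the precision, as 1 estimate per gene shared by the 12 libraries. A gene therefore has the same SE in PRAKO and in PRBKO, also where 1 group spread more than the others. The methods of the study use limma-voom, which needs counts; limma 3.58.1 (R 4.3.3) with trend was used on log2(TPM + 0.5) instead, with 1 coefficient per group over 12 libraries, and PRKO was fitted on its 6. A fold on this scale understates changes of low genes. The fit was tested on simulated data.

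The members and lists were chosen with earlier results of these data known. Genes were named by rule: Pgr, those named by the study, the 20 most negative and 15 most positive coding genes with a mean of at least 2 rescaled TPM, those called in both PRBKO and the difference, those with effects of opposite sign, and up to 4 of each list by smallest p. Others are marked where named. Alternatives covered scaling, pseudocount, filter, prior, weights, gene set, pooling, block, threshold and each library. No column of the tables was left unused. Some results are not reported here.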

Additional observations from a re-analysis of the deposited data

Results flagged for a closer look

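The KO effects of the 2 strains differed by a test of the difference itself in 339 of 16150 genes, and those in which the effects also had opposite signs with no overlap in either strain are listed here with their difference on the log2 scale. Those lower in the difference were 4930529N20Rik (-3.70), Gldc (-2.96), Fam210b (-2.78), Helt (-2.72), Cryab (-2.18), Zcchc24 (-2.01), Tnfrsf21 (-1.92), Apol6 (-1.77), Pdlim4 (-1.67), Rnd3 (-1.64), Dusp8 (-1.60), Sec14l2 (-1.57), Errfi1 (-1.56), S100a10 (-1.55), Vdr (-1.53), Penk (-1.50), Met (-1.42), Nhsl2 (-1.41), Net1 (-1.32), Il33 (-1.32), Ndrg1 (-1.30), Fgl2 (-1.30), Nfil3 (-1.29), Pfkfb4 (-1.29), Tspan2 (-1.22), Sin3b (-1.17), Abtb2 (-1.13), Reep1 (-1.11), Tfcp2l1 (-1.10), Nfatc2 (-1.10), Ptpn22 (-1.04) and Cmtm8 (-1.0). Those higher were Obsl1 (1.00), Shisa6 (1.33), Ptgds (1.52), Tle2 (1.62) and Wnt4 (1.66). Cmtm8 and Obsl1 lie at the fold limit and lost their call in 10 and 8 of the alternatives tried. The PRBKO KO libraries also stood apart in their share of protein-coding TPM, and its part in these values was not tested beyond the rescaling alternatives. Il33 was the gene whose PRKO effect, 0.047, did not have the sign of its PRAKO effect.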

How the results depend on the processing

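The main fit did not pair the samples by replicate number. The deviations of same-numbered KO and WT libraries correlated between -0.066 and 0.13 over the 3 strains. Those of differently numbered libraries correlated between -0.22 and 0.17. With 3 libraries per group, these values cannot decide whether the numbers mark pairs. The fit with a replicate block, which rests on 2 numbers shared by KO and WT within PRAKO and within PRBKO, gave 6 genes called in the difference of KO effects, 6 genes called lower in the difference of KO effects and 0 genes called higher in the difference of KO effects, with 188 genes called in the PRAKO effect, 0 genes called in the PRBKO effect and 115 genes called in the PRKO effect. TPM as deposited gave 40 higher in the difference, 40 in PRBKO and 10 genes called higher in the difference and in the PRKO effect, and a lower share of calls of 86.5% against 75.5%. This scaling moved the median PRAKO and PRBKO effects to 0.21 and 0.22. Array weights gave 127 higher. Without a filter on low values PRKO had 177 calls, and 8 were shared higher. An adjusted p of 0.05 with no fold limit gave 2037 calls in the difference (874 lower, 1163 higher), 2582 in PRAKO and 740 in PRBKO. The Birc2 difference, not called, turned from 0.098 to -0.0061 as deposited and -0.0051 after quantile normalization. The cause of these changes was not tested. Leaving out 1 library in turn gave 290 to 331 calls in the difference, 7 to 18 in PRBKO against 13, 140 to 228 in PRKO, 91 to 154 genes called lower in the difference and in the PRKO effect, and 4 to 17 shared higher. The counts shared with PRKO were added after the data were seen. PRBKO calls were 8 without WT 1, WT 2 or KO 1 and 7 without WT 4. A group left with 2 libraries was assumed to spread like the others. The replicate block gave PRAKO 161 genes lower and 27 higher.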
